A study of Mus musculus with 8 samples.

Results

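The comparison asks how mouse intestinal stromal cells with a low level of the receptor Pdgfra differ in their RNA after culture with wild-type enteroids from the same cells cultured alone. It uses 6 of the 8 RNA-sequencing libraries of the study. Of these, 3 are WT coculture libraries, in which stromal cells were grown with wild-type enteroids derived from the duodenum, and 3 are mesenchyme-only libraries, in which stromal cells were seeded in the same gel with no enteroids. The members were chosen by these labels, and each WT coculture was set against the mesenchyme-only library of the same replicate number, which gives 3 pairs. The 2 other libraries, from coculture with β-catenin gain-of-function enteroids, were not used.

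Per the labels, cocultures held 50000 Pdgfra-low cells in a 20 µl droplet of Matrigel, a basement membrane gel, for 7 days in medium without EGF, R-spondin 1 and Noggin. These factors normally sustain enteroids, which are cultured buds of intestinal epithelium. All 6 libraries are of GFP-positive cells sorted after dissociation, with dead cells removed by DAPI. The cell number and culture time of the mesenchyme-only droplets are not given separately, and the allele that carries GFP, the age and the sex of the animals are not given. A TGF-β receptor inhibitor named in the design text is tied to no sample label.

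Subepithelial stromal cells of the gut signal to the epithelium through secreted WNT, R-spondin, BMP and BMP-antagonist proteins, and receive Hedgehog ligands from it. They also build the collagenous matrix under the epithelium and release proteases and cytokines that remodel it. Fibroblasts that respond to TGF-β typically raise matrix genes, cross-linking enzymes and the cytokine Il11, a member of the IL-6 family. Pdgfra-low cells include trophocytes, which are known as a source of the BMP antagonist Grem1 and of R-spondins around the crypt.

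Expression is given in FPKM, sequenced fragments per length of transcript and per size of library, a level that can be compared between genes. Of 24930 genes, 12250 had at least 1 FPKM in at least 3 of the 6 libraries and were tested. Log2 fold changes are the mean over the 3 pairs of the difference in log2(FPKM + 1), WT coculture minus mesenchyme only, with the standard error (SE) of the paired fit. The added 1 understates the change of genes with low FPKM. A gene is called higher or lower in WT coculture, or described as rising or falling there, if the paired limma fit gave it an adjusted p under 0.05 (Benjamini-Hochberg over all genes tested).

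The libraries differed in more than the coculture. Relative depth ran from 0.793 to 1.0, and the number of reads is unknown. Total FPKM was higher in the WT coculture than in its partner in each pair. The totals were 491706, 598384 and 490264 in WT cocultures 1, 2 and 3, against 438585, 577707 and 457418 in mesenchyme only. Xist was at 27.2 FPKM in WT coculture 2 and 34.9 FPKM in mesenchyme only 2, and at most 0.0394 FPKM in the other 4 libraries. The Y-linked Ddx3y was at 16.7 and 15.8 FPKM in WT cocultures 1 and 3 and at 17.1 and 18.8 FPKM in mesenchyme only 1 and 3, so a pair shared its sex-linked transcripts. Saa3, an acute phase protein, held 7.46% of all FPKM in WT coculture 2, 4.99% in mesenchyme only 2 and 1.30% to 1.46% in the other 4 libraries. In the tested genes, the first 3 principal components held 33.9%, 26.8% and 21.4% of the variance, and the groups overlapped on each. Within each pair the WT coculture stood above its partner on components 1 and 3 and below it on component 2. On component 1 the values were 2.3, 36.6 and 6.8 in WT cocultures 1, 2 and 3, against -23.1, 13.2 and -35.8 in mesenchyme only.

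Stromal genes were abundant in all 6 libraries, and epithelial marker genes were detected in the sorted cells of the WT cocultures, most of all in WT coculture 3. The 17 stromal identity genes, among them Pdgfra and Col1a1, summed to 14904 to 23212 FPKM in WT coculture and to 11838 to 19915 FPKM in mesenchyme only, and all 17 were above 1 FPKM in every library. Pdgfra, the marker of the sorted cells, was at 86.9, 86.5 and 108 FPKM in WT coculture, against 92.3, 101 and 134 FPKM in mesenchyme only. The 24 epithelial markers summed to 25.0, 13.0 and 179 FPKM in WT cocultures 1, 2 and 3, against 9.54 to 11.3 FPKM in mesenchyme only. WT coculture 3 was the library with most epithelial RNA, with 16 of the 24 markers above 1 FPKM, against 5 and 4 in WT cocultures 1 and 2 and 3 or 4 in mesenchyme only. In that library the keratin Krt8 was at 35.4 FPKM and the adhesion molecule Epcam at 5.78 FPKM, while the stem cell marker Olfm4 was at 0 in all 6 libraries. Immune markers summed to 27.1 to 115 FPKM in WT coculture and 61.0 to 127 FPKM in mesenchyme only, and the pan-leukocyte gene Ptprc, with the T cell genes Cd3e and Cd3g, was under 1 FPKM throughout. Myeloid members of the list were detected: Lyz2 was at 14.0, 82.2 and 34.5 FPKM in WT coculture, against 41.7, 81.3 and 49.8 FPKM in mesenchyme only, Cd14 at 5.88 to 24.9 FPKM in WT coculture, against at least 15.6 FPKM in each mesenchyme-only library, and C1qb at most at 0.354 FPKM in WT coculture and 4.21 FPKM in mesenchyme only. For Cd14 each WT coculture was below its partner, and for Lyz2 those of pairs 1 and 3 were. Fcer1g was at 1.98, 4.37 and 4.95 FPKM in WT coculture, against 0.635, 5.26 and 4.01 FPKM in mesenchyme only, so it was higher in pairs 1 and 3. Cd68 was higher in pair 1 and lower in pairs 2 and 3. Of 4 tested immune markers 0 passed, and 1 had a log2 fold change above 0, against 53.9% of all tested genes. Mesothelial markers summed to 13.7, 36.6 and 92.7 FPKM in WT cocultures 1, 2 and 3, against 4.36, 18.8 and 21.2 FPKM in mesenchyme only, and Upk3b was at 0 in all. Krt19, which the epithelial list also holds, made up 6.63, 2.16 and 42.1 FPKM of these sums in WT coculture, and Wt1 most of the rest. In such bulk samples, fewer cells of a type and less RNA per cell cannot be told apart. The part of epithelial, mesothelial or immune RNA in the results was not tested, and the counts without pair 3 stand beside the calls.

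**Figure D1:**
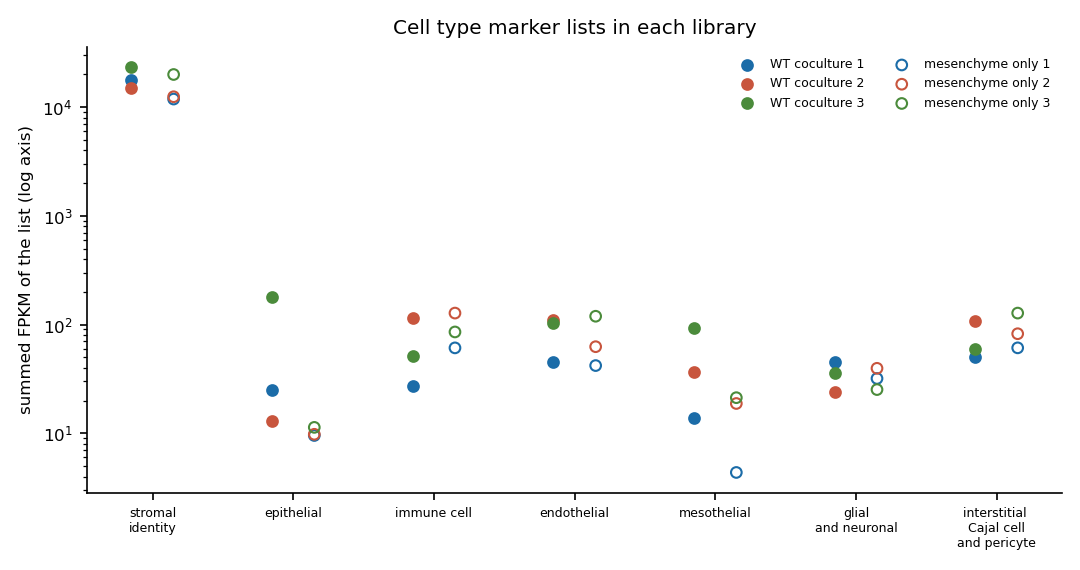
Summed FPKM (log axis) of 7 marker lists in each library, with filled points for the 3 WT cocultures and open points for the 3 mesenchyme-only libraries; colours give the replicate number. The epithelial sum was 179 FPKM in WT coculture 3 and 9.54 to 25.0 FPKM in the other 5 libraries.

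In WT coculture, genes for secreted signals, matrix and a matrix protease were higher, and growth factors and several matrix and vascular receptor genes were lower. In all, 57 genes were higher and 55 were lower, 0.914% of the 12250 tested (0.465% and 0.449%). The median change of all tested genes was 0.02. At an unadjusted p under 0.05, 856 genes were higher and 856 lower, 14.0% together. The paired fit picks genes that move alike in the pairs, so the same sign in all 3 pairs, seen in all 112, describes the calls and does not support them. Of all tested genes, 20.5% were higher and 17.4% lower in 3 of 3 pairs. The groups did not overlap in 47 of the 57 and 46 of the 55, and, over all tested genes, in 6.16% with every WT coculture higher and 5.52% with every one lower. Under 1 FPKM in all 3 mesenchyme-only libraries were 6 of the 57, and under 1 FPKM in all 3 WT cocultures were 11 of the 55; these passed the filter through the group where they are high. Most calls lay close to the threshold: 76 of the 112 had an adjusted p of 0.04 or above, and 7 had one under 0.01. With all libraries scaled to the same total of FPKM, 79 genes were higher and 120 lower.

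The number of calls changed with the model and the filter. With no replicate block 1 gene was higher, Lrrc55, and 8 were lower, all among the 112: Snora15, Chodl, Ifi27l2a, Abi3bp, Ccl9, Lrg1, Cldn15 and Ppp2r2b. Of these 9, Lrrc55, Snora15, Chodl, Ccl9, Lrg1 and Cldn15 reached 1 FPKM in 1 group only, so the filter admitted them through the group where they are high. There were 13 genes that passed with any 1 of the 3 pairs left out: 4 higher genes, Moxd1, Mmp9, Il11 and Cyp26b1, and 9 lower genes, including Snora15, Chodl, Abi3bp, Ccl9, Adamts5, Apoc1, Ptn and Clca3a1. Of these 13, Snora15, Chodl, Ccl9 and Clca3a1 reached 1 FPKM in mesenchyme only alone. The other 99 called genes lost their call without at least 1 pair, and adjusted p is given for the fit with all 3 pairs; for called genes described without one it lay between 0.0281 and 0.05. Without pair 3, which holds the library with most epithelial RNA, 43 genes were higher and 56 lower, with 27 of the 57 and 34 of the 55 among them. Without pair 2 there were 17 and 19, and without pair 1 there were 160 and 184.

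**Figure D2:**
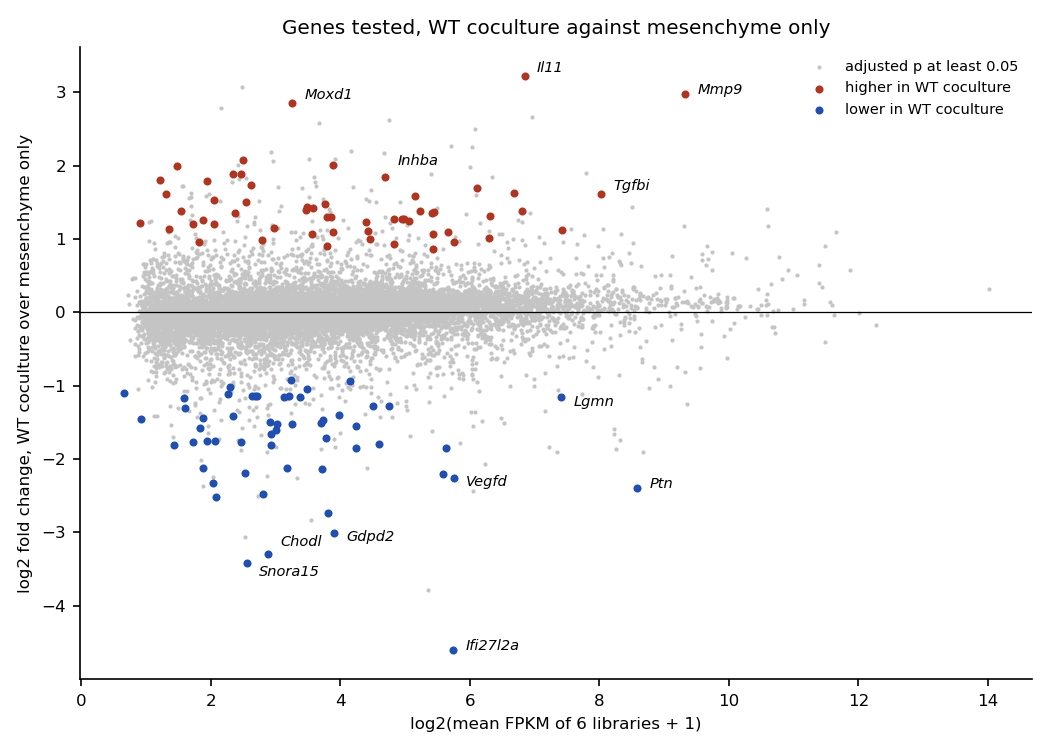
Log2 fold change (WT coculture over mesenchyme only) of each of the 12250 tested genes against the log2 of its mean FPKM plus 1 over 6 libraries; the 57 higher genes are red, the 55 lower genes blue. Il11, Mmp9 and Moxd1 had the highest log2 fold changes of the called genes, and Ifi27l2a the lowest, at -4.61.

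Among secreted signals, Il11, Inhba, Wnt5a and Wnt11 rose with WT enteroids. Il11, a cytokine that acts on fibroblasts and epithelium, was at 114, 424 and 84.6 FPKM in WT cocultures 1, 2 and 3, against 15.2, 39.6 and 6.78 FPKM in mesenchyme only. Each coculture was above every mesenchyme-only library, and pair 2 was the highest on both sides (log2 fold change 3.22, SE 0.16, adjusted p = 0.0084, limma). Inhba, which encodes the subunit of activin A, a TGF-β family ligand, was at 47.3, 28.2 and 43.2 FPKM in WT coculture, against 13.3, 9.98 and 7.57 FPKM in mesenchyme only (1.84, SE 0.20, adjusted p = 0.0448, limma). Wnt5a and Wnt11 encode ligands that act mainly through noncanonical WNT signalling. Wnt5a was at 42.7, 35.7 and 52.3 FPKM in WT coculture, against 19.3, 14.7 and 18.0 FPKM in mesenchyme only, with no overlap (1.27, SE 0.12, adjusted p = 0.036, limma). Wnt11 was at 3.23, 8.20 and 9.91 FPKM in WT coculture and 0.579, 1.57 and 1.07 FPKM in mesenchyme only (1.89, SE 0.21, adjusted p = 0.0448, limma).

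Dkk2 and Il1rn rose too, while Sfrp1, a more abundant WNT antagonist, had a negative change that did not pass (-0.82, SE 0.19). Dkk2, a secreted antagonist of canonical WNT signalling, was at 22.1, 10.3 and 13.2 FPKM in WT coculture, against 7.03, 3.66 and 4.41 FPKM in mesenchyme only (1.397, SE 0.11, adjusted p = 0.0281, limma). Il1rn, the interleukin-1 receptor antagonist, was at 3.63, 35.7 and 6.68 FPKM in WT coculture, against 1.26, 14.7 and 3.00 FPKM in mesenchyme only (1.07, SE 0.12, adjusted p = 0.0448, limma). For Il1rn the groups overlapped, since pair 2 was high on both sides, and each coculture was above its own partner.

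The promoter of Il11 is shown because this gene had the highest log2 fold change of the called genes and its promoter holds a match to the site of AP-1, the dimer of Fos and Jun proteins known to act on it. These are the 250 bases before its RefSeq start (GRCm38.p6, chr7:4778142-4778391, minus strand), 5′ to 3′, with the match to TGANTCA in capitals:
Il11: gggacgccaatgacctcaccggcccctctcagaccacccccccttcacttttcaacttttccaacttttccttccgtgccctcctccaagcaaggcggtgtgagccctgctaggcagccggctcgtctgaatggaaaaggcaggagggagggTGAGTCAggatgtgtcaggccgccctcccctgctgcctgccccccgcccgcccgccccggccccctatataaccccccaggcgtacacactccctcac
The match ends 92 bases before the start. TGANTCA was searched on both strands, where it reads alike, and was found before 7.82% of 27025 genes with a RefSeq promoter and before 5.47% of the tested genes that have one. Among the called genes with a promoter it stood before 2 of 41 higher genes, Il11 and Il1rn, and before 4 of 34 lower genes. A match is a description of these letters and no evidence of binding.

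Genes of matrix proteins and a matrix protease also rose. Mmp9, gelatinase B, which cleaves denatured collagen and basement membrane, was at 998, 1687 and 717 FPKM in WT coculture, against 143, 197 and 87.6 FPKM in mesenchyme only (2.97, SE 0.14, adjusted p = 0.0084, limma). Every coculture was over 3 times the highest mesenchyme-only library. Tgfbi, a secreted adhesion protein named for its induction by TGF-β, was at 218, 381 and 584 FPKM in WT coculture, against 76.2, 144 and 152 FPKM in mesenchyme only (1.61, SE 0.16, adjusted p = 0.0384, limma). Col7a1, the collagen of anchoring fibrils under epithelia, was at 6.15, 5.08 and 12.04 FPKM in WT coculture, against 1.01, 1.03 and 1.74 FPKM in mesenchyme only (1.89, SE 0.17, adjusted p = 0.0285, limma). Col5a3, a minor fibrillar collagen chain, was at 59.9, 63.4 and 61.0 FPKM in WT coculture, against 30.6, 19.9 and 20.7 FPKM in mesenchyme only (1.36, SE 0.16, adjusted p = 0.0493, limma). Its 3 cocultures were close to each other and all above the mesenchyme-only range. Emilin2, a glycoprotein of elastic fibres (1.28, SE 0.14), and Itgb3, the β3 integrin chain that pairs with αv to bind vitronectin (1.27, SE 0.13), also rose without overlap of the groups.

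Pmepa1, a TGF-β target that in turn restrains SMAD signalling, was at 168, 131 and 180 FPKM in WT coculture, against 50.9, 52.9 and 80.9 FPKM in mesenchyme only (1.38, SE 0.15, adjusted p = 0.0448, limma). Spsb1 and Spsb4, adaptors of ubiquitin ligases, rose by 1.35 (SE 0.12) and 1.43 (SE 0.13) on the log2 scale. Spsb1 was at 50.2, 64.4 and 66.3 FPKM in WT coculture, against 22.1, 23.4 and 23.2 FPKM in mesenchyme only. Nt5e, the ectoenzyme CD73 that makes adenosine, was at 6.49, 8.23 and 4.58 FPKM in WT coculture and 1.94, 2.66 and 1.14 FPKM in mesenchyme only (1.35, SE 0.11, adjusted p = 0.0281, limma). Moxd1, a copper-dependent monooxygenase related to dopamine β-hydroxylase, was at 8.44, 21.7 and 16.8 FPKM in WT coculture, against 0.181, 2.33 and 1.56 FPKM in mesenchyme only. Moxd1 had the smallest adjusted p of the higher genes (2.85, SE 0.12, adjusted p = 0.00616, limma). Fam210b rose to 128, 219 and 118 FPKM in WT coculture, against 50.6, 62.4 and 33.9 FPKM in mesenchyme only, and Lrrc55, an accessory subunit of potassium channels, to 4.17, 2.92 and 3.23 FPKM in WT coculture, against at most 0.206 FPKM in mesenchyme only.

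The transcription factor genes Hand2, Foxf2 and Wt1 also rose. Hand2, a basic helix-loop-helix factor, was at 136, 298 and 272 FPKM in WT coculture, against 69.2, 125 and 122 FPKM in mesenchyme only (1.12, SE 0.13, adjusted p = 0.0448, limma). Foxf2, a forkhead factor that is a Hedgehog target in gut mesenchyme, was at 103, 104 and 103 FPKM in WT coculture, against 56.8, 54.0 and 42.6 FPKM in mesenchyme only (1.01, SE 0.13). Wt1, a factor of mesothelium and of some stromal cells, was at 6.02, 34.1 and 45.2 FPKM in WT coculture, against 2.30, 16.9 and 18.4 FPKM in mesenchyme only (1.11, SE 0.11, adjusted p = 0.0436, limma). Library 1 was low for Wt1 in both groups, so the groups overlapped while every pair moved up. The mesothelial marker Msln was at 0.928, 0.146 and 5.21 FPKM in WT cocultures 1, 2 and 3 and at most 0.0243 FPKM in mesenchyme only. Chosen after their values were seen, Tbx3 (1.29, SE 0.15), Nkx3-2 (1.21, SE 0.15) and the long noncoding gene beside Hand2, Hand2os1 (0.86, SE 0.11), rose as well. Whether the counting kept strands apart is not stated, so reads of neighbouring genes on opposite strands may mix.

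**Figure D3:**
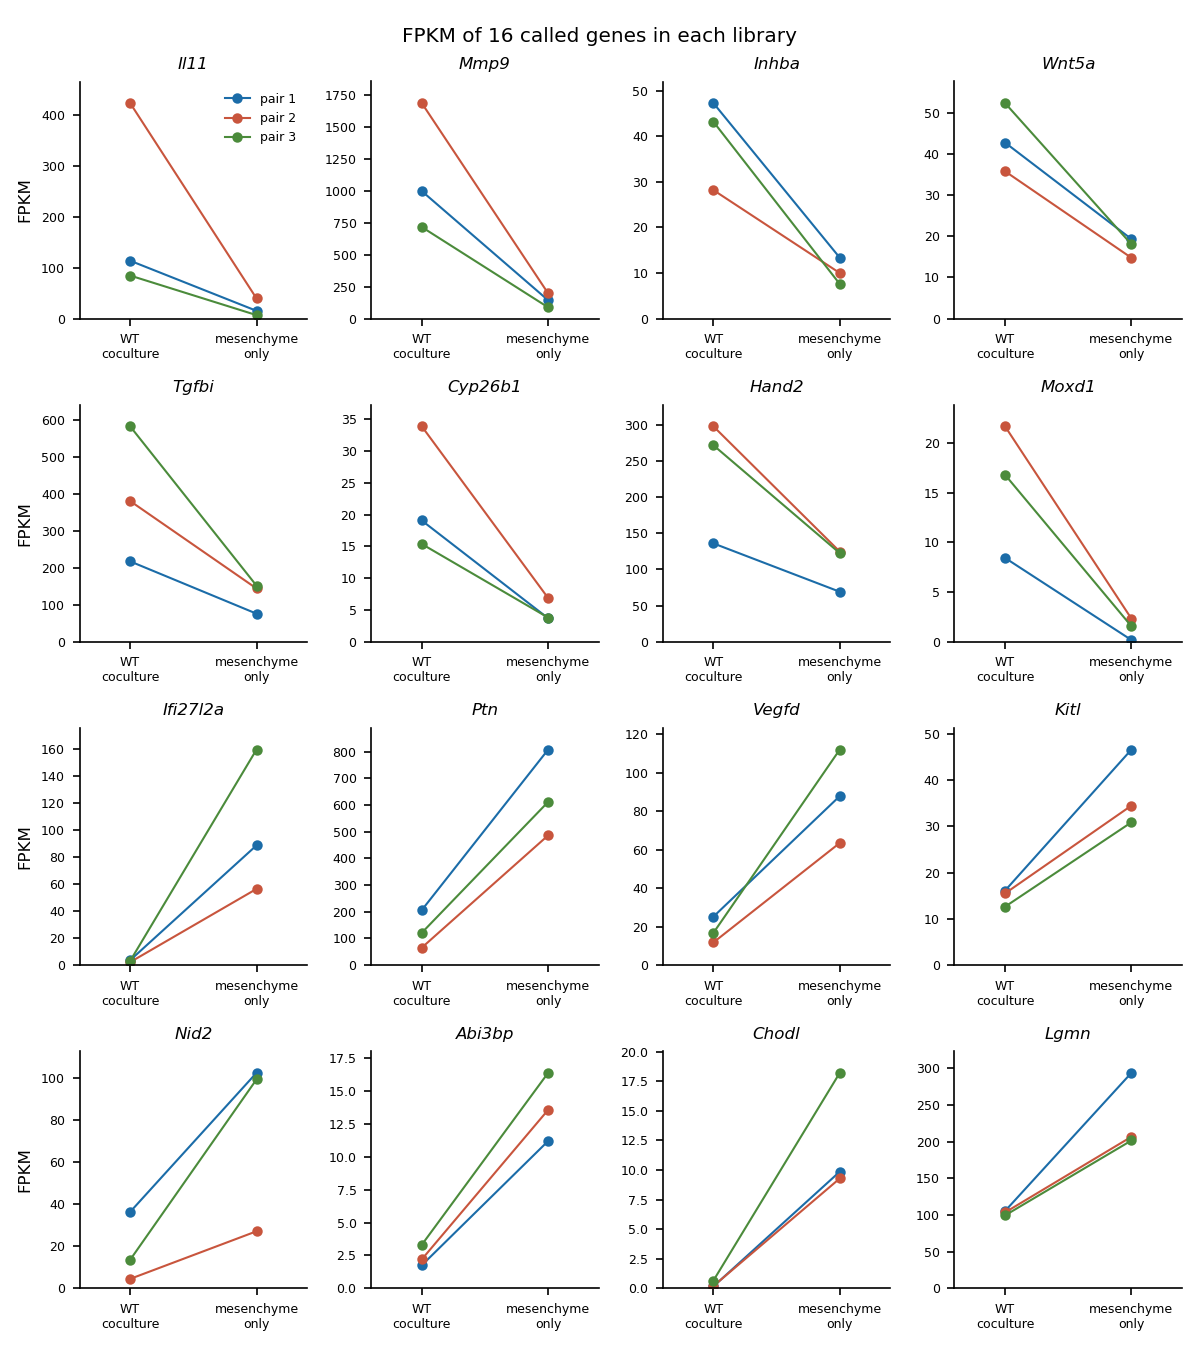
FPKM of 16 called genes, with the WT coculture at the left and the mesenchyme-only library at the right of each panel, joined within a replicate pair. The 8 genes in the upper rows are higher in each coculture than in its partner, and the 8 in the lower rows are lower.

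The growth factors Ptn, Vegfd and Kitl fell. Ptn, the heparin-binding growth factor pleiotrophin, was at 206, 65.1 and 121 FPKM in WT coculture, against 808, 487 and 612 FPKM in mesenchyme only (-2.39, SE 0.21, adjusted p = 0.0281, limma). Vegfd, a ligand for lymphatic growth, was at 25.1, 11.8 and 16.7 FPKM in WT coculture, against 87.9, 63.5 and 112 FPKM in mesenchyme only (-2.26, SE 0.19, adjusted p = 0.0281, limma). Kitl, the ligand of the receptor Kit on interstitial cells of Cajal and mast cells, was at 16.1, 15.5 and 12.6 FPKM in WT coculture, against 46.6, 34.5 and 30.9 FPKM in mesenchyme only (-1.27, SE 0.12, adjusted p = 0.036, limma). For all 3 genes the highest coculture was below the lowest mesenchyme-only library. In the list of 21 tested growth and vessel factors, 1 was called higher, and Vegfd and Ptn were the 2 called lower, against 0.914% called of all genes. The list's median was -0.16, beside 0.02 for all genes, and -0.27 with all libraries scaled to the same total. Vegfa, the main inducer of blood vessel growth, was at 270, 285 and 316 FPKM in WT coculture, against 116, 161 and 144 FPKM in mesenchyme only, and did not pass (1.05, SE 0.14, adjusted p = 0.0524, limma).

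Several extracellular proteins and their enzymes fell. Abi3bp, a matrix-bound protein, was at 1.75, 2.20 and 3.31 FPKM in WT coculture, against 11.2, 13.6 and 16.4 FPKM in mesenchyme only (-2.12, SE 0.11, adjusted p = 0.00906, limma). Adamts5, a protease that cleaves the proteoglycans aggrecan and versican, was at 3.01, 0.564 and 3.22 FPKM in WT coculture, against 13.5, 3.86 and 15.3 FPKM in mesenchyme only (-1.81, SE 0.13, adjusted p = 0.0228, limma). Nid2, a basement membrane linker, was at 36.2, 4.46 and 13.5 FPKM in WT coculture, against 102, 27.1 and 99.1 FPKM in mesenchyme only (-2.21, SE 0.26, adjusted p = 0.0493, limma). Pair 2 was low for Adamts5 and Nid2 on both sides. Chodl, the membrane lectin chondrolectin, was at 0.158, 0.188 and 0.651 FPKM in WT coculture, against 9.86, 9.29 and 18.2 FPKM in mesenchyme only (-3.30, SE 0.14, adjusted p = 0.00616, limma), and the matrix protein Sned1 fell by 1.84 (SE 0.16). Ccl9, a chemokine for myeloid cells, was at 0.314, 0.276 and 0.525 FPKM in WT coculture, against 4.84, 4.57 and 5.53 FPKM in mesenchyme only (-2.13, SE 0.12, adjusted p = 0.0116, limma). Lrg1, a secreted glycoprotein that modulates TGF-β signalling in vessels, was at most 0.643 FPKM in WT coculture and 5.91 to 6.39 FPKM in mesenchyme only (-2.51, SE 0.18, adjusted p = 0.0233, limma). Chodl, Ccl9 and Lrg1 were under 1 FPKM in all 3 WT cocultures and were tested because of their level in mesenchyme only.

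Agt and Gucy1a1 were also lower. Agt, angiotensinogen, was at 3.08, 12.9 and 14.3 FPKM in WT coculture, against 16.5, 32.7 and 60.0 FPKM in mesenchyme only (-1.79, SE 0.19, adjusted p = 0.0448, limma), and Enpep, the aminopeptidase that cleaves angiotensin II, fell by 1.75 (SE 0.14). Gucy1a1, a subunit of the nitric oxide receptor guanylate cyclase, was at 5.28, 7.10 and 11.8 FPKM in WT coculture, against 12.8, 23.7 and 47.0 FPKM in mesenchyme only (-1.55, SE 0.17, adjusted p = 0.0448, limma). It was the 1 gene called of 8 tested cyclic GMP genes, against 0.914% called of all genes, and the list's median was -0.43. Its partner subunit Gucy1b1 was at 20.5, 15.2 and 24.8 FPKM in WT coculture, against 33.7, 34.5 and 59.7 FPKM in mesenchyme only (-1.02, SE 0.14, adjusted p = 0.0594, limma). Chosen after their values were seen, S1pr1 (-1.02, SE 0.11) and S1pr3 (-1.84, SE 0.22), receptors of sphingosine 1-phosphate, and Npy1r (-1.40, SE 0.18), a receptor of neuropeptide Y, fell too. S1pr3 was at 28.5, 13.9 and 17.9 FPKM in WT coculture, against 84.9, 41.0 and 106 FPKM in mesenchyme only. Apoc1, an apolipoprotein, fell by 1.66 (SE 0.14), the orphan nuclear receptor Nr2f1 by 1.53 (SE 0.13) and the Krüppel-like factor Klf15 by 1.04 (SE 0.11) on the log2 scale.

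Small RNA genes were 1 of the 57 higher and 6 of the 55 lower genes, 6.25% of the called genes, while 224 of the 12250 tested genes are small RNA genes (1.83%). Libraries were made from poly-A RNA, so these values are fragments assigned to short genes and not mature small RNAs. Snora15, a small nucleolar RNA gene, was listed at 0 in all 3 WT cocultures and at 10.8, 8.44 and 9.95 FPKM in mesenchyme only (adjusted p = 0.00616, limma). Mir132 was at 0, 2.95 and 6.50 FPKM in WT coculture, against 1.49, 13.7 and 18.0 FPKM in mesenchyme only (-1.52, SE 0.16, adjusted p = 0.0448, limma), and Mir212 was at 0, 3.52 and 11.2 FPKM in WT coculture, against 1.11, 11.0 and 22.3 FPKM in mesenchyme only. Their hairpins lie 203 bases apart on chromosome 11, and all 6 called microRNA genes matched RefSeq. Their 3p mature sequences (RefSeq, GRCm38.p6, plus strand, chr11:75173723-75173744 and chr11:75173443-75173464) are shown with the seed, bases 2 to 8, in capitals, because it is the same in both:
miR-132-3p: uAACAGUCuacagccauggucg
miR-212-3p: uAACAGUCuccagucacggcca
No other mature sequence of the called microRNA genes shared a seed.

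Interferon-stimulated genes all had negative changes, while few passed the test. Of 25 tested, 25 had a log2 fold change below 0, against 46.1% of all tested genes, and 18 were lower in 3 of 3 pairs, against 17.4%. The median was -0.49, and -0.51, -0.32 and -0.73 in pairs 1, 2 and 3. Those called lower were 2, Ifi27l2a and Rtp4, against 0.449% of all tested genes. Ifi27l2a, an interferon-induced membrane protein, was at 3.55, 2.15 and 3.01 FPKM in WT coculture, against 88.8, 56.5 and 160 FPKM in mesenchyme only, the lowest log2 fold change of the called genes (-4.61, SE 0.24, adjusted p = 0.00906, limma). Rtp4, a receptor transport protein induced by interferon, was at 1.65, 1.76 and 2.75 FPKM in WT coculture, against 5.67, 4.76 and 6.28 FPKM in mesenchyme only (-1.12, SE 0.13, adjusted p = 0.0493, limma). B2m, the light chain of MHC class I and the most abundant member, was at 632, 1253 and 727 FPKM in WT coculture, against 803, 1274 and 1114 FPKM in mesenchyme only (-0.33, SE 0.18, adjusted p = 0.505, limma). Isg15, a ubiquitin-like protein, did not pass (-0.62, SE 0.18).

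Irgm2, an interferon-inducible GTPase outside that list and chosen after its values were seen, was at 3.81, 3.67 and 5.50 FPKM in WT coculture, against 9.05, 8.28 and 16.3 FPKM in mesenchyme only (-1.15, SE 0.13, adjusted p = 0.048, limma). Its promoter is shown because the motif of interferon-stimulated genes recurs in the list. These are the 250 bases before its RefSeq start (GRCm38.p6, chr11:58214727-58214976, plus strand), with the match to the motif (TTTC, then any 2 bases, then TTTC), read on the other strand, in capitals:
Irgm2: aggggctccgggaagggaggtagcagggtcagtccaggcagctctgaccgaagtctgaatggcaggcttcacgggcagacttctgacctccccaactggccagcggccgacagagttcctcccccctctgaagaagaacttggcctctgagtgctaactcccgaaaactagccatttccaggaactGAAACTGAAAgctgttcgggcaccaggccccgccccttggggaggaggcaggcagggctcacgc
This motif, searched on both strands with overlaps allowed, stood before 9 of the 20 tested interferon-stimulated genes with a promoter (45.0%), against 3.02% of tested genes with one and 3.46% of all 27025. It stood before 2 of 34 lower genes, Clca3a1 and Irgm2, and 2 of 41 higher genes. The 9 list members with a match, B2m, Bst2, Gbp2, Gbp3, Ifit1, Ifit3, Isg15, Oas1a and Stat2, were not called. Their share therefore describes the list and not the effect of coculture, and a match is no evidence of binding.

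TGF-β response genes had mostly positive changes, and 2 of them passed. Of 24 tested feedback and response genes, 23 had a log2 fold change above 0, against 53.9% of all tested genes, and 13 were higher in 3 of 3 pairs, against 20.5%. Tgfbi and Pmepa1 were the 2 called higher, against 0.465% of all genes. The median was 0.44, and 0.59, 0.54 and 0.59 in pairs 1, 2 and 3, beside 0.02 for all genes. With all libraries scaled to the same total, the list's median was 0.37. Col1a1, the main chain of type I collagen, was at 3963, 3031 and 5725 FPKM in WT coculture, against 1376, 1278 and 3990 FPKM in mesenchyme only, and the groups overlapped because library 3 was high in both (1.10, SE 0.25, adjusted p = 0.152, limma). Fn1, fibronectin, was at 1048, 919 and 1053 FPKM in WT coculture, against 795, 429 and 656 FPKM in mesenchyme only (0.73, SE 0.19, adjusted p = 0.195, limma). Postn, periostin, was at 530, 568 and 486 FPKM in WT coculture, against 203, 144 and 248 FPKM in mesenchyme only, without overlap, and did not pass (1.44, SE 0.22, adjusted p = 0.0682, limma). Of the 18 tested ligands, receptors and latency proteins, Inhba was the 1 called, against 0.914% called of all genes. Tgfb1, the ligand TGF-β1, was at 123, 157 and 86.7 FPKM in WT coculture, against 70.5, 55.4 and 45.5 FPKM in mesenchyme only (1.06, SE 0.17, adjusted p = 0.0726, limma), and the activin-binding protein Fstl1 had a log2 fold change of 0.63 (SE 0.15, adjusted p = 0.157, limma).

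Collagens and their processing enzymes also had mostly positive changes. Of 20 tested collagen genes 2, Col7a1 and Col5a3, were called higher, against 0.465% of all genes, and 0 lower. In 3 of 3 pairs 11 were higher, against 20.5%. The median was 0.46, or 0.36 with all libraries scaled to the same total. Col3a1, at 2807, 1831 and 4770 FPKM in WT coculture and 2444, 2215 and 4892 FPKM in mesenchyme only, had a log2 fold change of -0.04 (SE 0.20, adjusted p = 0.96, limma). Col12a1, a collagen that decorates fibrils, missed the threshold (1.25, SE 0.16, adjusted p = 0.0501, limma). Of 17 collagen-modifying enzymes 0 passed, 12 were higher in 3 of 3 pairs and 0 lower, against 20.5% and 17.4% of all genes. Their median was 0.34, or 0.24 with all libraries scaled to the same total. Lox, the cross-linking enzyme lysyl oxidase, was at 235, 228 and 304 FPKM in WT coculture, against 77.3, 120 and 164 FPKM in mesenchyme only (1.13, SE 0.18, adjusted p = 0.0747, limma). Among 21 proteases and inhibitors of the matrix, Mmp9 was called higher and Adamts5 and Adamts1 lower, against 0.914% called of all genes, and Mmp2, gelatinase A, had a log2 fold change of 0.79 (SE 0.28, adjusted p = 0.301, limma).

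**Figure D4:**
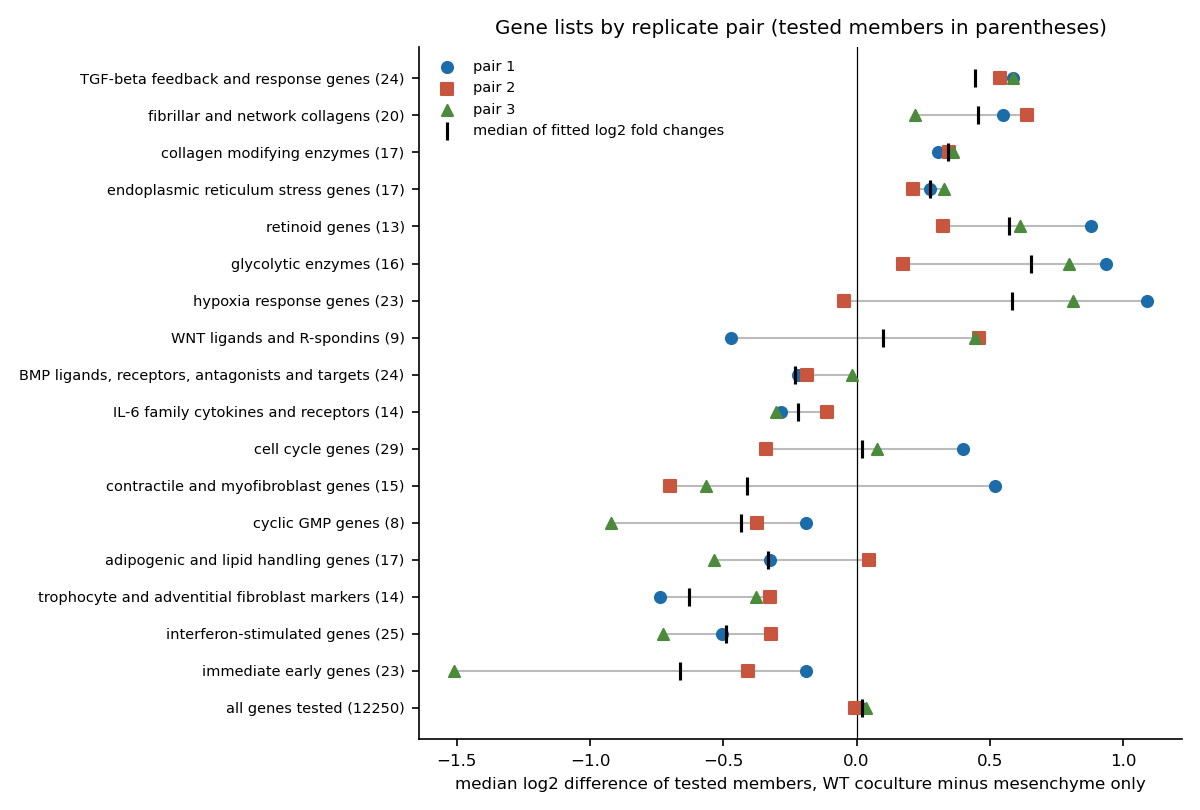
Median log2 difference (WT coculture minus mesenchyme only) of the tested members of 17 gene lists and of all tested genes, in each of the 3 pairs (coloured symbols) and of the fitted log2 fold changes (black bars). The TGF-β response list lay at 0.54 to 0.59 in all 3 pairs, while the hypoxia list was at -0.05 in pair 2 and at 1.09 and 0.81 in pairs 1 and 3.

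Signals that maintain the crypt had changes of both signs, and few passed. Of 9 tested WNT ligands and R-spondins, Wnt5a and Wnt11 were called higher, against 0.465% of all genes, and 0 lower. Wnt2b, a canonical ligand of stromal cells, was at 0.771, 0.201 and 0.908 FPKM in WT coculture, against 3.09, 1.94 and 7.90 FPKM in mesenchyme only (-1.57, SE 0.24, adjusted p = 0.0641, limma). Being under 1 FPKM in every WT coculture, Wnt2b was tested because of its level in mesenchyme only. Rspo3, an amplifier of canonical WNT signalling, was at 16.6, 36.9 and 38.2 FPKM in WT coculture, against 34.3, 58.7 and 43.3 FPKM in mesenchyme only (-0.61, SE 0.18, adjusted p = 0.23, limma), while Rspo1 stood at 0.64 (SE 0.16). In 13 tested WNT antagonists and feedback targets, Dkk2 was the 1 called, against 0.914% called of all genes. Their median was -0.18 (-0.32 with all libraries scaled to the same total), and the feedback target Nkd1 was at -0.81 (SE 0.12, adjusted p = 0.0641, limma). Sfrp1, an abundant secreted WNT antagonist, was at 485, 249 and 710 FPKM in WT coculture, against 794, 575 and 1033 FPKM in mesenchyme only, and did not pass (-0.82, SE 0.19, adjusted p = 0.148, limma). Of 24 tested BMP genes 0 passed, and the median was -0.23. Grem1 was at 982, 708 and 683 FPKM in WT coculture, against 1307, 999.9 and 1343 FPKM in mesenchyme only, without overlap (-0.63, SE 0.19, adjusted p = 0.232, limma), and the ligand Bmp4 stood at -0.48 (SE 0.17). Of 14 tested trophocyte and adventitial fibroblast markers 0 passed, 6 were lower in 3 of 3 pairs and 2 higher, against 17.4% and 20.5% of all genes, with a median of -0.63; Cd81, a trophocyte marker, was at 245, 290 and 248 FPKM in WT coculture and 208, 266 and 265 FPKM in mesenchyme only.

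Among 13 tested Hedgehog genes Foxf2 was the 1 called, against 0.914% called of all genes. The list's median was 0.08, or -0.021 with all libraries scaled to the same total. Gli1, the transcription factor that reports Hedgehog activity, was at 4.66, 1.92 and 4.01 FPKM in WT coculture, against 0.113, 0.367 and 0.503 FPKM in mesenchyme only. Every coculture was above every mesenchyme-only library for Gli1, as for 6.16% of all tested genes, and the test was not passed (1.73, SE 0.26, adjusted p = 0.0636, limma). Gli1 was under 1 FPKM in all 3 mesenchyme-only libraries and was tested because of its level in WT coculture. Ptch1, the receptor that is also a target, was at 8.09, 5.30 and 6.66 FPKM in WT coculture, against 3.72, 4.03 and 6.28 FPKM in mesenchyme only (0.45, SE 0.19, adjusted p = 0.393, limma).

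In the IL-6 family, Il11 was the 1 gene called of 14 tested, against 0.914% of all genes, while 8 of the 14 were lower in 3 of 3 pairs and 2 higher, against 17.4% and 20.5% of all genes; the median was -0.22. Il11ra1, the receptor of Il11, was at 53.8, 108 and 126 FPKM in WT coculture, against 66.2, 113 and 150 FPKM in mesenchyme only (-0.20, SE 0.12, adjusted p = 0.518, limma). Lifr, the receptor chain of leukemia inhibitory factor, was at 4.65, 2.61 and 6.60 FPKM in WT coculture, against 9.34, 7.26 and 11.0 FPKM in mesenchyme only (-0.91, SE 0.15, adjusted p = 0.0739, limma).

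Of 13 tested retinoid genes 12 had a log2 fold change above 0, against 53.9% of all tested genes. Cyp26b1, which degrades retinoic acid, was at 19.1, 33.9 and 15.4 FPKM in WT coculture, against 3.70, 6.88 and 3.81 FPKM in mesenchyme only (2.00, SE 0.13, adjusted p = 0.0167, limma). Of the enzymes that make retinoic acid, Aldh1a2 was at 31.0, 90.8 and 31.9 FPKM in WT coculture, against 8.55, 45.3 and 11.4 FPKM in mesenchyme only (1.38, SE 0.17, adjusted p = 0.0493, limma). Aldh1a1 fell to 0.577, 0.393 and 1.23 FPKM in WT coculture, against 3.40, 2.00 and 4.57 FPKM in mesenchyme only (-1.30, SE 0.14, adjusted p = 0.0448, limma). In the list 2 genes were called higher and 1 lower, against 0.465% and 0.449% of all genes, and 7 were higher and 1 lower in 3 of 3 pairs, against 20.5% and 17.4%; the median was 0.57. Dhrs3, a retinaldehyde reductase, did not pass (0.88, SE 0.34). Adh1, an alcohol dehydrogenase that also oxidises retinol, which is outside the list and was chosen after its values were seen, fell to 3.69, 3.06 and 1.24 FPKM in WT coculture, against 31.6, 14.2 and 24.5 FPKM in mesenchyme only (-2.73, SE 0.31).

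Hypoxia response genes and glycolytic enzymes had positive medians in pairs 1 and 3 and medians nearer 0 in pair 2, and 0 passed. At an unadjusted p under 0.05, 856 of all tested genes were higher (6.99%). Of 16 tested glycolytic genes 14 had a log2 fold change above 0, against 53.9% of all genes, and 11 were higher in 3 of 3 pairs, against 20.5%; their medians were 0.94, 0.17 and 0.80 in pairs 1, 2 and 3. Those of the 23 tested hypoxia genes were 1.09, -0.05 and 0.81. Gapdh, the most abundant glycolytic enzyme, was at 3208, 2986 and 3518 FPKM in WT coculture, against 1541, 2901 and 1995 FPKM in mesenchyme only (0.64, SE 0.26, adjusted p = 0.362, limma). Pgk1, phosphoglycerate kinase, was at 388, 279 and 381 FPKM in WT coculture, against 147, 308 and 187 FPKM in mesenchyme only (0.76, SE 0.31, adjusted p = 0.37, limma). The cocultures were near each other for these enzymes, and mesenchyme only 2 stood above mesenchyme only 1 and 3. The proline hydroxylase Egln3, which marks HIF proteins for decay, was at 42.6, 27.7 and 41.6 FPKM in WT coculture, against 11.9, 20.2 and 16.8 FPKM in mesenchyme only (1.15, SE 0.26, adjusted p = 0.148, limma).

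The promoter of Pgk1 is shown as an example of the hypoxia response core ACGTG, which HIF proteins bind, in genes that differed between pairs. The bases are the 250 before its RefSeq start (GRCm38.p6, chrX:106186850-106187099, plus strand), with both matches, of which the second is read on the other strand, in capitals:
Pgk1: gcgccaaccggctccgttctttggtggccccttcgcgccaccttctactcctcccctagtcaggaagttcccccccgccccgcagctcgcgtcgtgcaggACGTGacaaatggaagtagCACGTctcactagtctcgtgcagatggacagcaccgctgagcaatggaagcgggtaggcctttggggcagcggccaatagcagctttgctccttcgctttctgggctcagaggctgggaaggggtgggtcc
ACGTG, searched on both strands and counted also where it overlaps its own reverse in CACGTG, stood before 13 of 19 tested hypoxia genes with a promoter (68.4%) and 7 of 16 glycolytic genes (43.8%). It stood before 25.5% of all tested genes with a promoter, before 8 of 41 higher genes and before 7 of 34 lower genes. The shares of the hypoxia and glycolytic lists, which hold no called gene, describe the lists and are no evidence of binding.

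Immediate early genes, which cells switch on soon after a stimulus or handling, had mostly negative changes that were uneven across pairs. Of 23 tested 0 passed, 21 had a log2 fold change below 0, against 46.1% of all genes, and 13 were lower in 3 of 3 pairs, against 17.4%. The median was -0.19 in pair 1, -0.41 in pair 2 and -1.51 in pair 3. Fos, a subunit of AP-1, was at 78.6, 177 and 136 FPKM in WT coculture, against 153, 415 and 836 FPKM in mesenchyme only (-1.59, SE 0.35, adjusted p = 0.147, limma). Egr1, a zinc finger factor and the most abundant member, was at 193, 356 and 448 FPKM in WT coculture, against 236, 293 and 993 FPKM in mesenchyme only (-0.39, SE 0.29, adjusted p = 0.615, limma). Mesenchyme only 3 was the highest library for both genes. The part of sample handling in these values was not tested.

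**Figure D5:**
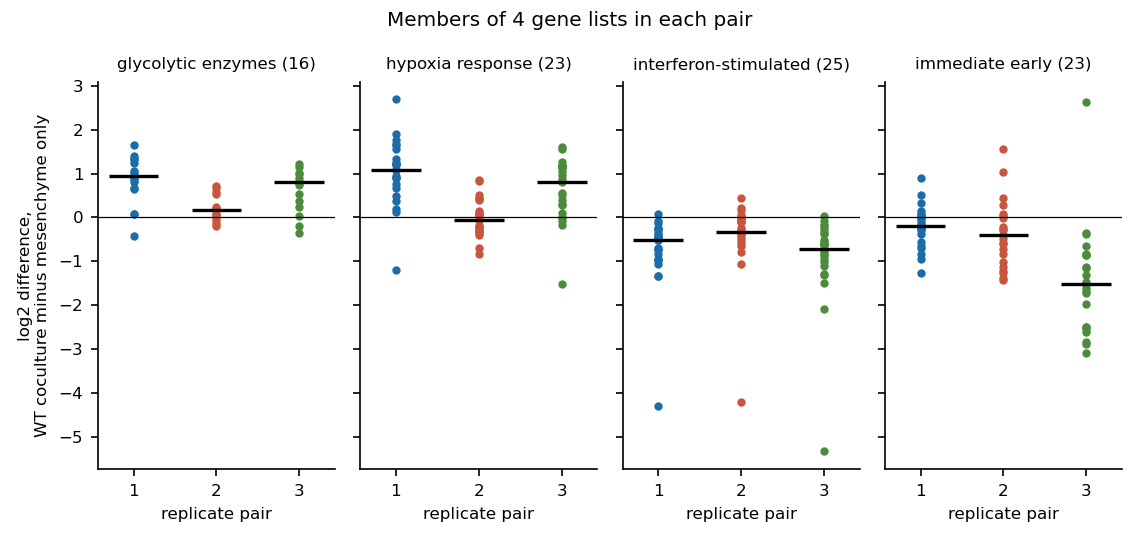
Log2 difference (WT coculture minus mesenchyme only) of each tested member of 4 gene lists in each pair, with the median as a bar; the number of tested members is in parentheses. Glycolytic and hypoxia genes centred near 0 in pair 2 (medians 0.17 and -0.05), and immediate early genes were lowest in pair 3 (median -1.51).

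Cell cycle genes had no common direction. Of 29 tested 0 passed, and the median was 0.02, as for all genes, or -0.065 with all libraries scaled to the same total, with 0.40, -0.34 and 0.08 in pairs 1, 2 and 3. Of 12 tested integrins Itgb3 was the 1 called, against 0.914% of all genes, and 5 were higher in 3 of 3 pairs and 0 lower, against 20.5% and 17.4%.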

How the data were processed

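RNA of GFP-positive stromal cells was sequenced from poly-A libraries. The deposited table holds FPKM values per gene symbol, which the authors had normalized by length and library size in ways that are not given. Tools listed in the submitters' processing notes are kallisto 0.46.1 and DESeq2 1.40.1, and the listed genome build is mm9; their roles are not stated. The table holds no counts, so read depth is unknown; relative depth was read from the steps between low values. For 24 genes the symbol has turned into a date, and these are never named.

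Values were transformed as log2(FPKM + 1), genes that reached 1 FPKM in 3 or more of the 6 libraries were kept, and limma 3.58.1 (R 4.3.3) was fitted with the replicate number as a block, trend and robust options, and 2 residual degrees of freedom. All p-values are two-sided. An exact sign-flip test on 3 pairs cannot go below 0.25, nor an exact permutation test of 3 against 3 below 0.1, so none was run. In data simulated on these libraries for this comparison, with 200 of 12250 genes changed by 1, 2 or 3 on the log2 scale, 91.1%, 97.6% and 98.6% were recovered, and 11.5%, 10.7% and 11.0% of calls were false.

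The labels share replicate numbers without saying what they mark. Deviations from the group means correlated at 0.585, 0.459 and 0.442 between libraries of the same number, so the numbers pair the samples. Between others they correlated at -0.348 to -0.142. These negative values are no separate evidence, since the deviations cancel out within a group and positive values for equal numbers force negative ones elsewhere. No label says that the libraries came from separate animals or cultures. Ddx3y was at 0.109 FPKM in WT coculture 2 and at 0 in mesenchyme only 2, where Xist was high. Pair 2 thus had another animal source than pairs 1 and 3. The block takes out the spread between pairs, so p-values measure how alike the 3 pair differences are, not the spread between samples. For Il11 the SE was 0.16 with the block and 0.79 with no block.

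The members, the 43 gene lists and the tests were chosen with earlier results of these data known. The rule for named genes takes up to 12 called genes a direction by p, up to 15 a direction with a mean of at least 5 FPKM and no overlap of the groups, 2 abundant and 2 low-p members of a list, and a fixed set; Adamts1, Adh1, Aldh1a2, Clca3a1, Cldn15, Col12a1, Hand2os1, Irgm2, Isg15, Mir132, Mir212, Nkx3-2, Npy1r, Pgk1, Ppp2r2b, S1pr1, S1pr3 and Tbx3 stand outside it and were chosen after their values were seen. Results for some genes are not reported here. Promoters and microRNAs come from RefSeq (GRCm38.p6), matched by symbol. Alternatives were other pseudocounts, filters and scalings, other variance models, no block or a random one, and each pair or library left out. Plots used matplotlib 3.10.9 in python 3.11.15.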

Additional observations from a re-analysis of the deposited data

How the results depend on the processing

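The number of genes that pass changed with the block, the filter, the scaling and the variance model. Against 57 higher and 55 lower genes, no replicate block gave 1 and 8, the replicate block as a random effect 100 and 102, no filter 3 and 4, at least 1 FPKM in 2 libraries 15 and 21, quantile normalization 29 and 29, variances without trend and robust options 19 and 25, and sample quality weights with the block 1637 and 1462. A mean of at least 5 FPKM gave 35 lower genes, and scaling all libraries to the same total gave 79 higher and 120 lower. With 1 pair left out, higher genes numbered 17 to 160 and lower genes 19 to 184; without pair 2, the fewest, 5 of the 57 and 11 of the 55 still passed, and without pair 1, the most, 55 and 54 did. With no block and 1 library left out, 0 or 1 genes were higher and 1 to 8 lower. At an unadjusted p under 0.05, against 856 in each direction, no replicate block gave 406 higher and 461 lower, the same total 550 and 1344, the weights 2684 and 2376, and a mean of at least 5 FPKM 557 lower; with 1 pair left out there were 515 to 1100 higher. With no block and WT coculture 1, 2 or 3 left out there were 374, 335 and 346 higher and 439, 383 and 384 lower; without mesenchyme only 1 or 3 there were 291 and 425 higher and 345 and 356 lower. Each of the 112 called genes kept its sign in every alternative in which it was tested. Of the uncalled genes named, the log2 fold change of Acta2 turned to 0.048 with the weights, that of Cd81 to -0.016 at the same total, and that of Col3a1 to 0.15 with the weights. With 1 pair left out, Col3a1 ran from -0.16 to 0.082. With no block and 1 library left out, Cd81 turned to -0.029, Col3a1 to 0.30 or 0.32, Egr1 to 0.25, Il11ra1 to 0.062 or 0.17 and Lcn2 to -0.23. The cause was not tested in any of these. Depth is unknown, and genes near 1 FPKM rest on few fragments.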

Other observations

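Contractile genes divided by pair. Of 15 tested contractile and myofibroblast genes 0 passed, and the medians were 0.52, -0.70 and -0.56 in pairs 1, 2 and 3, against 0.02, -0.00 and 0.03 for all tested genes. Acta2, the actin of smooth muscle, had a level of 714, 86.5 and 237 FPKM in WT coculture, against 570, 334 and 668 FPKM in mesenchyme only (-1.03, SE 0.47, adjusted p = 0.428, limma). WT coculture 1 was the highest of the 6 libraries and WT coculture 2 the lowest.

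Some genes of fat storage were separated between the groups without passing, while the median of their list was -0.33, -0.53 and 0.05 in pairs 1, 3 and 2. Plin1, a lipid droplet protein, was at 0.138, 0.864 and 0.194 FPKM in WT coculture, against 7.65, 3.35 and 3.45 FPKM in mesenchyme only (-2.02, SE 0.33, adjusted p = 0.0831, limma), and the adipogenic factor Cebpa was at 13.9, 21.7 and 24.9 FPKM in WT coculture, against 79.7, 62.7 and 48.4 FPKM in mesenchyme only (-1.62, SE 0.30, adjusted p = 0.113, limma). Apoe, a lipid carrier, was at 50.1, 299 and 241 FPKM in WT coculture, against 411, 518 and 915 FPKM in mesenchyme only (-1.91, SE 0.43, adjusted p = 0.167, limma). In the list of 17 tested adipogenic and lipid handling genes, 7 were lower in 3 of 3 pairs and 0 higher, against 17.4% and 20.5% of all tested genes. For 5 of the 17 every WT coculture was below every mesenchyme-only library, against 5.52% of all tested genes. Plin1 was under 1 FPKM in all 3 WT cocultures and was tested because of its level in mesenchyme only.

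Endoplasmic reticulum stress genes had small positive changes. Of 17 tested 0 passed, 11 were higher in 3 of 3 pairs and 0 lower, against 20.5% and 17.4% of all tested genes, and the median was 0.28, or 0.17 with all libraries scaled to the same total. Calr, a calcium-binding chaperone, was at 821, 887 and 677 FPKM in WT coculture, against 642, 595 and 480 FPKM in mesenchyme only (0.48, SE 0.15, adjusted p = 0.252, limma).

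Serpina3n, a serine protease inhibitor of the acute phase, was at 47.6, 65.1 and 79.6 FPKM in WT coculture, against 291, 237 and 168 FPKM in mesenchyme only (-1.83, SE 0.30, adjusted p = 0.0817, limma). Its groups did not overlap. In the complement and acute phase list of 17 tested genes 0 passed, with 6 higher and 7 lower in 3 of 3 pairs, against 20.5% and 17.4% of all tested genes. Lcn2, an iron-scavenging protein of that list, was at 877, 10204 and 1094 FPKM in WT coculture, against 527, 3739 and 768 FPKM in mesenchyme only (0.90, SE 0.24, adjusted p = 0.194, limma), and the libraries of pair 2 were the highest in both groups.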
